A study of Mus musculus with 5 samples.

Results

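The stretch of mouse chromosome 13 described here spans 2.6 Mb of build mm8 (chr13:21400001-24000000) and is named for its main cluster of replication-dependent histone genes. Its members were chosen by position alone, as the 5200 consecutive bins of 500 bp in this window, out of 5261471 bins on chromosomes 1 to 19, X and Y. Chromatin came from mouse embryonic fibroblasts called secondary in the labels, which carry doxycycline-inducible Klf4, Sox2 and Oct4. They were grown out of chimeric embryos at 13.5 days post coitum and enriched for descendants of the injected inducible cells with 2 µg/ml puromycin over 48 hours. All groups share these cells, and the labels do not say whether doxycycline was given. The groups were chromatin immunoprecipitated with an antibody against RNA Pol II (8WG16), E2F4 or H3K27me3, each with 1 library, and whole cell extract without antibody (WCE), with 2 libraries. A ratio to WCE below is the antibody's reads over the reads of both WCE libraries, scaled by autosomal totals, and its interval is an exact 95% one that covers counting error only. With 1 library per antibody, the tests compare libraries and not conditions. Binding in few cells and weak binding in all cells cannot be told apart in such bulk chromatin.

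Replication-dependent histone genes encode the core histones H2A, H2B, H3 and H4 and the linker histone H1, and they are switched on when cells copy their DNA. They are short, lack introns, lie close together, and exist in many nearly identical copies. E2F4 belongs to the E2F family of cell cycle factors and is best known as a repressor bound in resting and early cycling cells, 8WG16 binds the repetitive tail of the polymerase, and H3K27me3 marks chromatin repressed by Polycomb proteins.

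The files hold read positions on mm8 with no gene names, and the only gene table used here is RefSeq's on GRCm38.p6, so no histone gene can be placed on an mm8 region, and neither the window's name nor the fibroblast label was checked against genes. In that table the cluster on chromosome 13 holds 54 protein-coding histone genes, of which 6 encode H1, 13 H2A, 15 H2B, 9 H3 and 11 H4. They form a group of 23 and a group of 31, separated between H2bc11 and H4c8 by 41 other protein-coding genes, 36 of them Vmn1r vomeronasal receptors, which are pheromone receptors of the nose. The stretch also holds 77 tRNA genes, which RNA polymerase III transcribes.

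RefSeq promoter entries existed for 51 of the 54 genes (52 entries, because a gene can have more than 1). The 250 bases before the start were searched on both strands for short words chosen after other results were known. The word CCAAT, the core of NF-Y sites, occurred in 44 of 52 histone promoters (84.6%) and in 33.9% of all 32851 promoters. It was present in all 41 entries of the H1, H2A, H2B and H3 genes and in 3 of 11 of the H4 genes. The TATA word TATAAA occurred in 50.0% of the histone promoters and 12.4% of all promoters, and the octamer ATTTGCAT, read by Oct factors, in 21.2% and 1.60%. The octamer was found in 5 of 13 H2A and 6 of 15 H2B entries and in none of the H1, H3 or H4 entries. Entries of neighbouring H2A and H2B genes can overlap. Those of H2ac13 (chr13:21716162-21716411, plus strand) and H2bc13 (chr13:21716184-21716433, minus strand) do. With both strands searched, a word in the common bases is counted in both families. The word counts are thus of entries and not of separate sequences, and overlapping entries were not merged. Of E2F words only exact forms were searched. TTTGGCGC and TTTCCCGC occurred in 1 histone promoter, of an H4 gene (1.92%, against 1.30% of all promoters). The shorter TTTGGCG and TTTCCCG also occurred in 1 (1.92%, against 3.92%). Other forms, such as the TTCCCGCC in the H4c11 sequence below, were not counted, so these counts do not show that histone promoters lack E2F sites. The first H1, H2A, H3 and H4 promoters in genome order are shown because they carry the difference between families, with matches to any of these words, on either strand, in capitals. They lie at chr13:21780626-21780875 (minus strand), chr13:21716162-21716411 (plus), chr13:21717378-21717627 (plus) and chr13:21734784-21735033 (plus) of GRCm38.p6, read 5′ to 3′ along the gene.
H1f5: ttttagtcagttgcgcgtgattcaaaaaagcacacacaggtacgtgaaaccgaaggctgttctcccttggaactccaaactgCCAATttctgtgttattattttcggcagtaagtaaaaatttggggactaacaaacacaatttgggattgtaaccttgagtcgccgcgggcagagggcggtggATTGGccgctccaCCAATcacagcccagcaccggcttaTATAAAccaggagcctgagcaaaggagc
H2ac13: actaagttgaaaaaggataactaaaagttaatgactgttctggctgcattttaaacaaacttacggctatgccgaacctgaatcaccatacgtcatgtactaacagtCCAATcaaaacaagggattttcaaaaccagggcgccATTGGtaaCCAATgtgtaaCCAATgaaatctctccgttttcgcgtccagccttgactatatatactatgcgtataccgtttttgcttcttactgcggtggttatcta
H3c10: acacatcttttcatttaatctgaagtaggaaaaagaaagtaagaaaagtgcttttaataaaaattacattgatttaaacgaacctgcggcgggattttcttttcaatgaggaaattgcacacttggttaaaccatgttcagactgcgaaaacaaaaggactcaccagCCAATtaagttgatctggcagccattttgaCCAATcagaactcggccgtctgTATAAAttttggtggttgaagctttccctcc
H4c11: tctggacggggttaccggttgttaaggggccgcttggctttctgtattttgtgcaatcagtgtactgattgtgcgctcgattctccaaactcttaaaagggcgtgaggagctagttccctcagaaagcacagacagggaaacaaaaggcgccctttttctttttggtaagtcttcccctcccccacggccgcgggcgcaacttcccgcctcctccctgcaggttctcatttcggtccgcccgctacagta

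Histone promoters also repeat each other, and this bears on which reads can be placed. A 26-base word, the aligner's seed length for RNA Pol II and E2F4 and taken here as their read length, was shared with the promoter of another gene in 11 of 52 histone entries (21.2%) and in 12.96% of all promoters. Among H4 entries the share was 5 of 11, among H2A 4 of 13, among H2B 2 of 15, and among H1 and H3 none. The overlap of H2ac13 and H2bc13, which is the same place in the genome, is not among these. The promoters of H2bc23 (chr13:21810200-21810449, minus strand) and H4bc24 (chr13:21833493-21833742, plus strand), which RefSeq also lists under an H2B synonym, were the same in all 250 bases. Their common sequence is shown because no read inside it can tell these genes apart.
H2bc23: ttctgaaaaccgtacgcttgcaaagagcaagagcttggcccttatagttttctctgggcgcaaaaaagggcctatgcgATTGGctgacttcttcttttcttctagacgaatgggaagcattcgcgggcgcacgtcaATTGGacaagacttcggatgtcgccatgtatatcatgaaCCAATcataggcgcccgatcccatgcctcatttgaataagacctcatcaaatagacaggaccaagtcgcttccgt

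The libraries differed in depth and in how their reads were placed. Distinct autosomal reads with 1 placement numbered 3111606 for RNA Pol II, 1971874 for E2F4, 9483163 for H3K27me3, and 417799 and 11226593 for WCE replicates 1 and 2, so WCE replicate 2 supplied nearly all of the background. Reads listed at 2 places made up 37.8% of the autosomal list entries of WCE replicate 1, against 5.12% to 11.0% in the other 4 libraries. Each such read has an entry at both places, so these are not shares of reads. WCE replicate 1 also stood apart in its strands, as its minus strand positions lay most often 17 bp above plus strand ones (840 coincidences, against a median of 28 over lags from -60 to 100 bp). Results that change without it are named beside their values.

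RNA Pol II and E2F4 were both dense over the window as a whole, and H3K27me3 was close to WCE. The window held 10564 RNA Pol II reads, 3764 E2F4 reads and 8332 H3K27me3 reads, against 413 and 8910 in WCE replicates 1 and 2. The ratio to WCE was 4.24 for RNA Pol II (4.12 to 4.36), 2.38 for E2F4 (2.30 to 2.48) and 1.10 for H3K27me3 (1.07 to 1.13). Over the rest of chromosome 13 the ratios were 0.692, 0.793 and 0.986 in the same order of antibodies. The intervals of all 3 antibodies lay above those of the rest of the chromosome, but the H3K27me3 ratio fell to 0.889 (0.805 to 0.983) with WCE replicate 1 as the only background. Scaling on sparse 10 kb bins in place of autosomal totals multiplied the ratios of RNA Pol II by 3.13 (a log2 shift of 1.65), those of E2F4 by 0.915 and those of H3K27me3 by 1.31. Levels against 1, and levels of 1 antibody against another, thus depend on the scaling. Differences between places for the same antibody do not.

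RNA Pol II and E2F4 were denser in both outer parts than between them. In the lower part (chr13:21400001-22200000) the RNA Pol II ratio was 3.92 (3.75 to 4.11) and in the upper part (chr13:23400001-24000000) 6.04 (5.81 to 6.29), while in the middle part (chr13:22200001-23400000) it was 0.774 (0.690 to 0.866). E2F4 had ratios of 2.28 (2.14 to 2.43), 3.10 (2.94 to 3.27) and 0.969 (0.853 to 1.10) in the lower, upper and middle parts. Both outer parts thus exceeded the middle for both antibodies, with intervals that do not overlap, whatever the scaling. The wording that set the window already named 2 dense parts around a silent middle, so this contrast is a description and not a test. The reads of the middle part were unevenly spread, as 285 of its 368 RNA Pol II reads lay in its last tile, chr13:23300001-23400000 (ratio 2.24, 1.93 to 2.60), which holds the called region chr13:23376001-23377000, and the other 11 tiles had ratios from 0 to 0.374. Whether the middle part lay under or over WCE was less certain, as the RNA Pol II ratio there became 2.42 (2.16 to 2.71) with scaling on sparse bins and 0.292 (0.243 to 0.353) without WCE replicate 2, and the E2F4 ratio became 1.03 without WCE replicate 1. The middle was also poor in extract reads, at 1.20 reads per kb per 10000000 autosomal reads in WCE replicate 2, against 3.76 in the lower part, 5.82 in the upper part and 4.06 over the autosomes, but not to that degree in WCE replicate 1 (3.37, against 3.77, 4.71 and 4.06). Reads with more than 2 placements were discarded by the alignment settings, and the part of this in the low count of the middle was not tested.

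**Figure D1:**
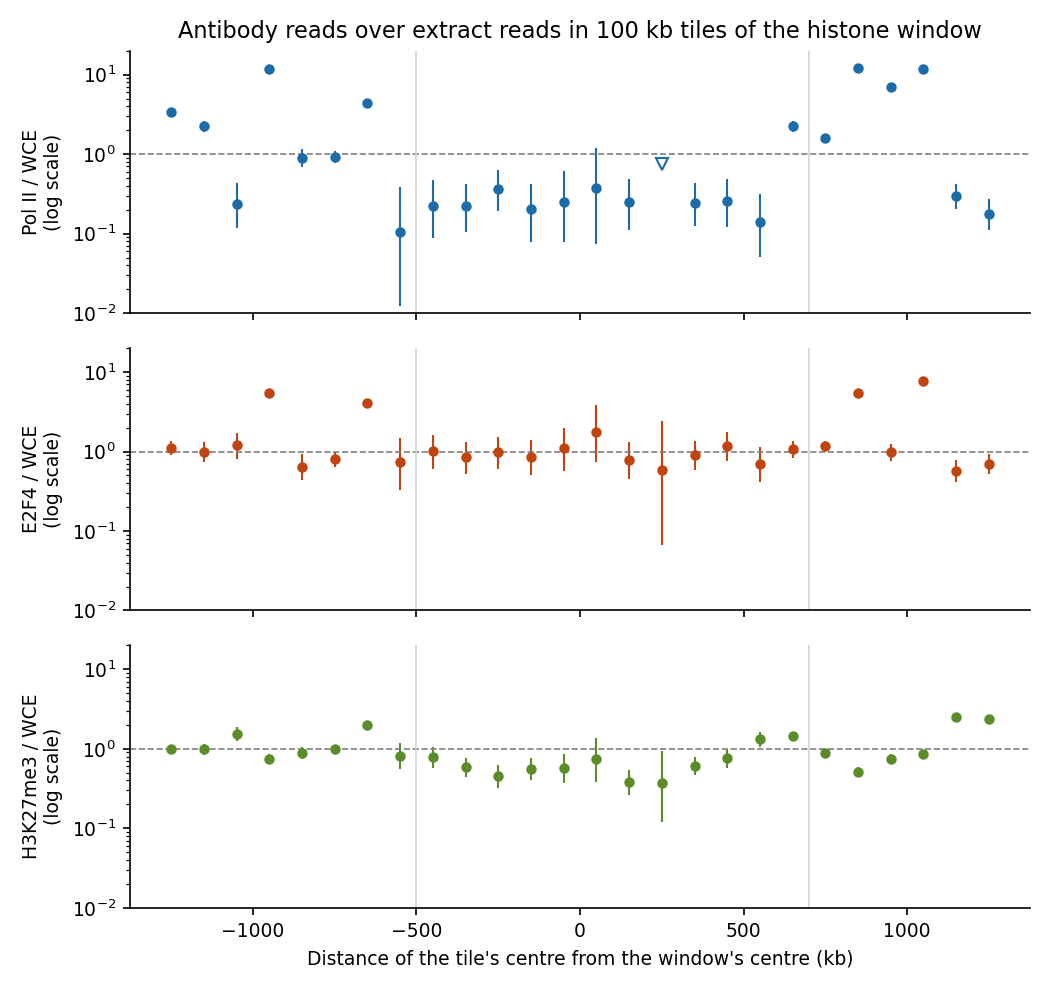
Ratio of antibody reads to summed WCE reads in 26 tiles of 100 kb (y axis, log scale; the dashed line marks 1) by the distance of the tile's centre from the window's centre in kb (x axis), for RNA Pol II, E2F4 and H3K27me3 from top to bottom. Bars are exact 95% intervals, the open triangle is the upper limit of a tile without RNA Pol II reads, and grey lines bound the middle part; RNA Pol II reaches 11.9 and 11.97 in the tallest tiles on either side, and H3K27me3 reaches 2.52 near the upper end.

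At the scale of 100 kb the dense tiles were few. RNA Pol II reached 11.9 (10.8 to 13.1) at chr13:21700001-21800000, 11.97 (11.1 to 12.95) at chr13:23500001-23600000 and 11.9 (10.9 to 12.9) at chr13:23700001-23800000, and E2F4 reached 5.49, 5.37 and 7.61 in the same tiles. The tile between the last 2, chr13:23600001-23700000, kept an RNA Pol II ratio of 7.04 (6.32 to 7.85) while its E2F4 ratio was 0.978 (0.768 to 1.23). Within that average it held 1 called E2F4 bin, chr13:23630001-23630500, with a ratio of 10.5 (4.37 to 26.95). H3K27me3 lay below WCE in all 3 dense tiles, at 0.743 (0.649 to 0.849), 0.514 (0.452 to 0.583) and 0.870 (0.777 to 0.973), but the last became 1.13 with WCE replicate 1 alone and 1.14 with scaling on sparse bins, and the first 0.912 and 0.970 with intervals that include 1. It was highest in the 2 tiles that close the window, at 2.52 (2.24 to 2.83) and 2.37 (2.12 to 2.65), where RNA Pol II had ratios of 0.296 and 0.178. These tiles lie past the last RNA Pol II region of the window.

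Tested bin by bin, RNA Pol II and E2F4 calls were several times more frequent in the window than in the genome, and H3K27me3 calls were not. A bin was called at a Benjamini-Hochberg adjusted p under 0.01 in a one-sided exact conditional binomial test against summed WCE and a ratio of at least 3 with 1 read added to each side. RNA Pol II was called in 166 of 831 bins with a read (19.98%), against 3.41% over all chromosomes. E2F4 was called in 33 of 894 (3.69%, against 0.735%), and H3K27me3 in 18 of 2540 (0.709%, against 0.728%). The H3K27me3 share is that of the background. Among 996 other windows of the same length tiled along the genome, 14 held more called RNA Pol II bins and 27 more called E2F4 bins, as a description added after the data were seen.

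**Figure D2:**
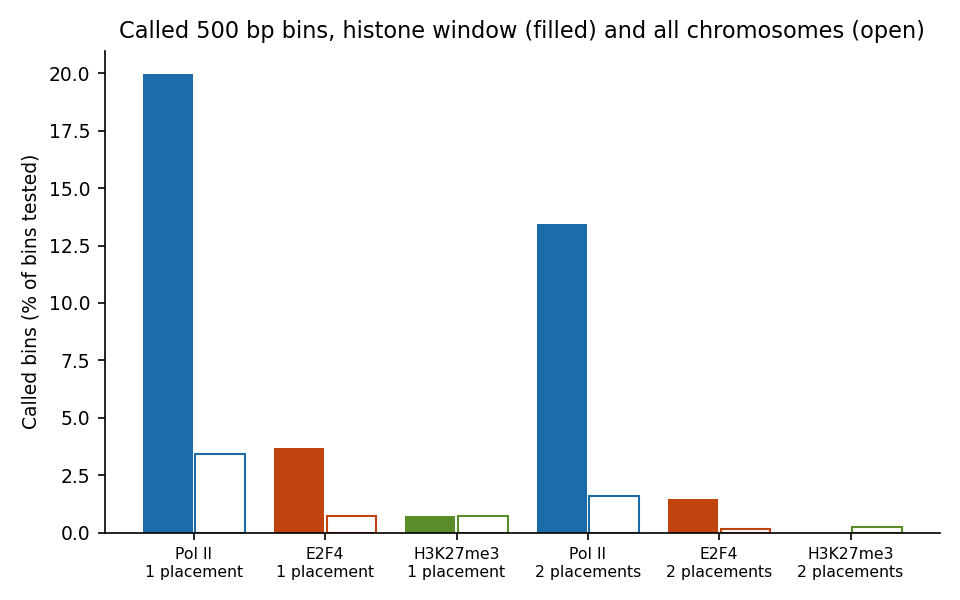
Share of tested 500 bp bins called for each antibody (y axis, percent) in the histone window (filled bars) and over all chromosomes (open bars), for reads with 1 placement and reads listed at 2 places. RNA Pol II reaches 19.98% in the window against 3.41% over all chromosomes, and H3K27me3 is level at 0.709% against 0.728%.

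Called bins with at most 1 bin between them were joined into regions. RNA Pol II formed 47 regions with a median length of 1500 bp, and 28 of them were at least 1500 bp long (59.6%), against a median of 1000 bp and 31.8% of the 13335 regions in the rest of the genome. Their median ratio with 1 read added was 23.95, against 12.7 in the rest of the genome. The longest were 4500 bp (chr13:21722501-21727000 and chr13:22047501-22052000), far short of the longest elsewhere, 28000 bp. The ratios of the 47 regions spread from 3.98 to 79.4, so they were unequal among themselves.

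The highest lower limit belonged to chr13:21789501-21791000, with 191 RNA Pol II reads, 4 E2F4 reads and 4 H3K27me3 reads, against 0 and 9 in WCE replicates 1 and 2. Its RNA Pol II ratio was 79.4 (41.0 to 176). E2F4 could not be told from WCE there at this depth, with a ratio of 2.63 (0.591 to 9.40). The region with the most reads was chr13:23746001-23748000, with 778 RNA Pol II, 244 E2F4 and 14 H3K27me3 reads, against 0 and 70 in WCE replicates 1 and 2, and RNA Pol II and E2F4 ratios of 41.6 (32.5 to 53.9) and 20.6 (15.7 to 27.3). At chr13:23588501-23590000 the 340 RNA Pol II reads stood against 0 and 22 in WCE replicates 1 and 2 (ratio 57.8, 37.6 to 93.5). The other 5 named by the highest lower limits had ratios between 37.3 and 49.6. Of the 8 regions, 5 had E2F4 ratios below 5 and 3 had E2F4 ratios between 17.2 and 36.4.

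Placed along the window, RNA Pol II regions with fewer than 100 kb between them formed 4 blocks, a grouping chosen after the positions were seen. The first (chr13:21409501-21539000) held 8 RNA Pol II regions and 1 E2F4 region, the second (chr13:21717501-21840000) 10 and 6, the third (chr13:21952001-22059000) 5 and 3, and the fourth (chr13:23376001-23772500) 24 and 14. The block chr13:21409501-21539000 thus held only 1 E2F4 region. Over its whole length the E2F4 ratio was 1.15 (0.954 to 1.38), beside an RNA Pol II ratio of 3.68 (3.31 to 4.08). Within its RNA Pol II regions the median E2F4 ratio was 2.38, ranging from 1.34 (0.397 to 3.63) to 7.09 (3.37 to 15.1). This median was 6.16 at chr13:21717501-21840000, 2.29 at chr13:21952001-22059000 and 3.33 at chr13:23376001-23772500. RNA Pol II regions covered 15.1% of the second block and 12.6% of the fourth, against 5.41% of the first. Between the third block and the fourth, 1317 kb held no RNA Pol II or E2F4 call, with 131 RNA Pol II and 272 E2F4 reads, against 176 and 1631 in WCE replicates 1 and 2.

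E2F4 was concentrated in few places. Of its 24 regions 14 lay in the fourth block, and their median length was 500 bp with a longest of 2000 bp (chr13:21723501-21725500), against a median of 500 bp in the rest of the genome. The strongest by lower limit was chr13:23768501-23769500, with 520 E2F4, 171 RNA Pol II and 8 H3K27me3 reads, against 0 and 33 in WCE replicates 1 and 2, and an E2F4 ratio of 93.1 (65.4 to 137). Next came chr13:22043001-22043500 with 191 E2F4 reads, against 0 and 9 in WCE replicates 1 and 2 (ratio 125, 64.6 to 278), and chr13:21762001-21763000 with 124, against 0 and 5 (ratio 146, 61.1 to 459). At all 3 E2F4 stood above RNA Pol II, whose ratios were 19.4, 27.03 and 41.2. The other 5 named E2F4 regions had ratios between 37.0 and 103.

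RNA Pol II and E2F4 share the WCE libraries as background, so the places where both are called are given as positions and not as a test. In singly placed reads, E2F4 regions shared at least 1 bp with 21 of the 47 RNA Pol II regions (44.7%, against 42.03% in the rest of the genome). Of the 24 E2F4 regions, 22 (91.7%, against 87.5%) touched an RNA Pol II region. These shares were near those elsewhere. The exceptions were chr13:22029501-22030000, with 17 E2F4 reads and 1 RNA Pol II read, against 0 and 7 in WCE replicates 1 and 2, and chr13:23444001-23444500, with 10 E2F4 reads and no RNA Pol II read, against 0 and 2. Within the 47 RNA Pol II regions E2F4 had 2643 reads and RNA Pol II 9404, but the 5 regions with the most held 53.5% of the E2F4 reads and 29.3% of the RNA Pol II reads. The median E2F4 ratio with 1 read added, 2.95, was accordingly no higher than in the rest of the genome (3.22), while the summed ratio was 10.5 (9.82 to 11.2), against 5.34. With scaling by autosomal totals, E2F4 density exceeded RNA Pol II density in 4 of 47 regions. This count depends on the scaling, as sparse bins multiply RNA Pol II ratios by 3.13 and E2F4 ratios by 0.915, and it was not repeated with them.

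**Figure D3:**
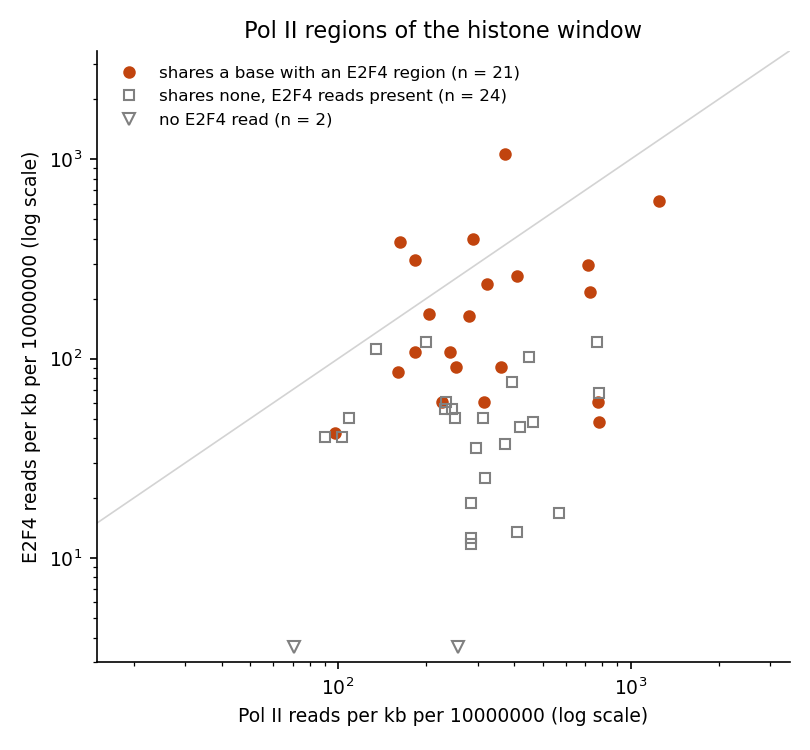
RNA Pol II density (x axis) and E2F4 density (y axis) of the 47 RNA Pol II regions, both in reads per kb per 10000000 autosomal reads on log scales, with equal densities on the grey line. All counts are of singly placed reads. Filled points share at least 1 bp with an E2F4 region (21), open squares share none, and 2 triangles mark regions without an E2F4 read. Of these 2, chr13:21742501-21743500 overlaps an E2F4 region called from reads with 2 placements (84 E2F4 entries). The other, chr13:21839001-21840000, overlaps no such region. With scaling by autosomal totals 4 points lie above the line, a count that depends on this scaling.

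The positions of both proteins within regions were compared around the 24 E2F4 summits, the densest 200 bp of each E2F4 region, as a description added after the data were seen. RNA Pol II density was 635 reads per kb per 10000000 within 99 bp of the summits, fell to 148 at 400 to 499 bp, and had a further crest of 333 at 900 to 999 bp. The E2F4 summit lay a median of 665 bp from the nearest RNA Pol II summit (lowest 30, highest 14090), and within 500 bp in 12 of 24 regions. WCE replicate 2 was itself raised at these summits, at 32.6 within 99 bp and 10.8 at 400 to 499 bp, while H3K27me3 had 5.96 and 5.49. WCE replicate 1 did not show this rise, with 0 reads within 99 bp and 1 at 400 to 499 bp. Regions lie close together, so the profile at over 1000 bp includes neighbouring regions. Reads were summed over the 24 summits, so places with many reads weigh most, and the further crest need not be typical of each summit.

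**Figure D4:**
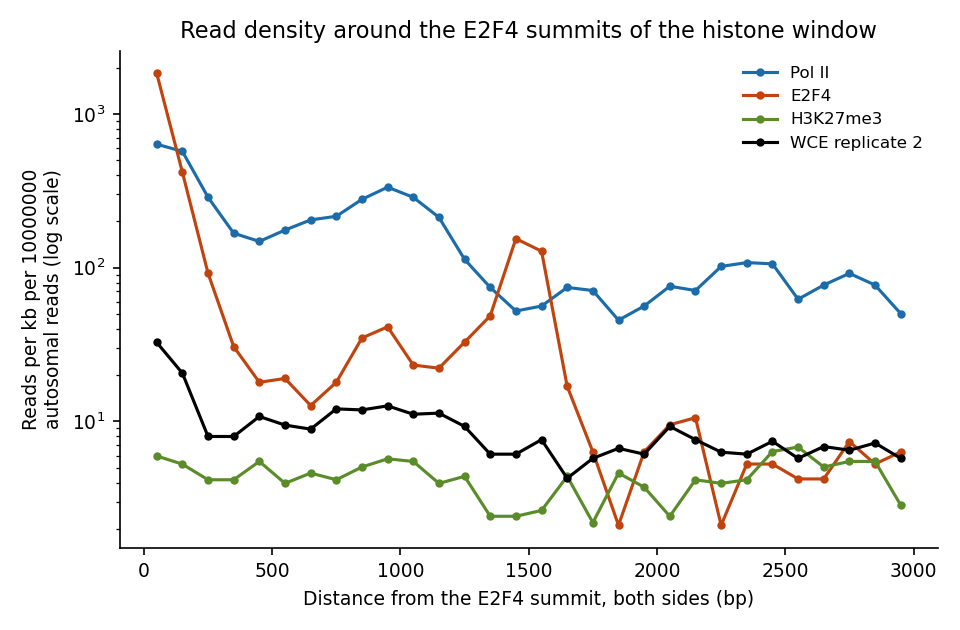
Read density of RNA Pol II, E2F4, H3K27me3 and WCE replicate 2 (y axis, reads per kb per 10000000 autosomal reads, log scale) by distance from 24 E2F4 summits, both sides pooled (x axis, bp). Reads are summed over the summits, so places with many reads weigh most. RNA Pol II has a first crest of 635 at the summit and a further one of 333 at 900 to 999 bp, and WCE replicate 2 is 32.6 at the summit.

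The ratio of H3K27me3 to WCE was low where RNA Pol II was called. It was under 1 in 46 of 47 RNA Pol II regions, with a median of 0.395, and the ratio over their summed reads was 0.442, against 0.485 in the rest of the genome. The reads themselves were not fewer there: within 99 bp of the 47 RNA Pol II summits H3K27me3 density was 11.3 reads per kb per 10000000, against 4.26 at 1900 to 1999 bp, while WCE replicate 2 had 33.2, against 6.54. The low ratio thus goes with a raised level of WCE replicate 2. WCE replicate 1 did not show this rise, with 0 reads within 99 bp and 2 at 1900 to 1999 bp. H3K27me3 formed 7 regions, 2.69 per Mb against 2.91 in the rest of the genome. None shared a base with an RNA Pol II region (0 of 7, which allows up to 40.96% by the exact interval, against 2.22% in the rest of the genome). The longest, chr13:22012001-22017500, had 370 H3K27me3, 21 RNA Pol II and 16 E2F4 reads, against 0 and 73 in WCE replicates 1 and 2 (ratio 6.22, 4.83 to 8.11). With chr13:22009501-22011000 (63 reads, against 0 and 10, ratio 7.74, 3.94 to 16.9) it lay inside the third block, with called RNA Pol II regions on either side. Of the others, 2 of 500 bp had no WCE read, with 13 and 12 H3K27me3 reads, which gives ratios of 5.32 and 4.91 with WCE set at a floor of 3 reads over both libraries and exact lower limits of 3.74 and 3.41.

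Reads listed at 2 places formed an unusually large share of the window. Their entries were 29.6% of its distinct RNA Pol II entries (28.9 to 30.3), 20.3% of those of E2F4 and 17.4% of those of H3K27me3. In WCE replicates 1 and 2 they were 41.3% and 22.7%. These are shares of list entries and not of reads, as each such read has an entry at both of its places. A read with both places in the window counts 2 times, so intervals from these entries are too narrow. Over the autosomes the shares were 8.79%, 10.97% and 5.13%, against 37.8% and 5.12%. The extract was therefore raised as well. Seed lengths were 26 bp for RNA Pol II, E2F4 and WCE replicate 1 and 36 bp for H3K27me3 and WCE replicate 2, and their part in these shares was not tested. In these reads the window had 4442 RNA Pol II, 956 E2F4 and 1761 H3K27me3 entries, against 290 and 2618 in WCE replicates 1 and 2. The RNA Pol II ratio was 4.38 (4.18 to 4.59), and it stayed between 3.43 and 12.97 with either WCE library left out. The E2F4 and H3K27me3 ratios of 1.16 (1.08 to 1.25) and 1.02 (0.957 to 1.08) turned to 0.911 and 0.795 without WCE replicate 1, so no direction is given for them.

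Bins called from reads with 2 placements were more frequent for RNA Pol II and E2F4 than in the genome. RNA Pol II was called in 60 of 447 bins (13.4%, against 1.62% over all chromosomes), E2F4 in 7 of 474 (1.48%, against 0.148%) and H3K27me3 in 0 of 834 (against 0.272%). None of the 996 other windows held as many such bins for RNA Pol II, where the next highest had 36, or for E2F4, where the next highest had 6. These counts list both copies of a repeated sequence, in the window and elsewhere. Of the 7 E2F4 bins, 6 lie in 2 pairs of copies, so the rank of E2F4 is not one of separate sites. The calls formed 32 RNA Pol II regions, of which 6 touched no region called from singly placed reads, and 5 E2F4 regions, of which 3 touched none. Singly placed reads thus missed 23 of the 189 bins called for RNA Pol II by either kind of read. These 23 bins include both copies of repeated sequence, so they are not separate sites, and neither is the RNA Pol II rank one of separate sites.

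The 4 strongest of these by lower limit were at most 1000 bp long. At chr13:23589001-23590000 there were 50 RNA Pol II reads with 2 placements and none in either WCE library, a ratio of 47.8 with WCE set at a floor of 3 reads over both libraries and an exact lower limit of 37.5. At chr13:23562501-23563500 the 133 RNA Pol II reads stood against 0 and 5 in WCE replicates 1 and 2 (ratio 76.3, 31.9 to 239), and at chr13:23746001-23747000 the 116 reads stood against 0 and 5 (ratio 66.5, 27.7 to 208.8). These 2 are direct copies that share most of their reads, as the search for copies shows, and are 1 observation. E2F4 was among them at chr13:23768501-23769000, with 66 reads, against 0 and 2 (ratio 117, 31.1 to 984), inside its strongest region from singly placed reads. The widest were a pair of 4000 bp, chr13:21816001-21820000 and chr13:21838501-21842500, with 1000 and 1068 RNA Pol II reads and ratios of 22.4 and 23.6. Most of this pair is absent from singly placed reads, which called 1000 bp of it.

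Because each of these reads is listed at both of its places, copies can be found from positions alone. For every pair of RNA Pol II regions, read positions were matched at a constant distance (direct copies) or a constant sum (inverted copies), with at least 70% of the larger region's positions required. This search and its threshold were set after the positions were seen. It found 5 pairs, 4 inverted and 1 direct. The direct pair was chr13:23562501-23563500 and chr13:23746001-23747000, with 134 and 116 RNA Pol II positions and 98 matched (73.1% of the larger). E2F4 had 4 and 4 positions there with 2 matched. The 4000 bp pair, inverted and 22.5 kb apart, had 1000 and 1073 RNA Pol II positions with 912 matched (85.0% of the larger), and E2F4, which the search did not use, had 70 and 71 with 68 matched. A smaller inverted pair, chr13:21403501-21404000 and chr13:21486501-21487000, matched 22 of 22 positions. The inverted pair at chr13:21742001-21743000 and chr13:21757501-21758500 had 241 and 224 RNA Pol II positions with 214 matched, and 84 and 81 E2F4 positions with 81 matched. Dense regions match in part at any constant, as neighbouring constants matched a mean of 24.7%, 3.22% and 46.7% in these 3 inverted pairs. The last inverted pair, chr13:23552001-23553000 and chr13:23568501-23569500, had 176 and 180 RNA Pol II positions with 133 matched (73.9% of the larger). Libraries that the search did not use matched less there. E2F4 had 3 and 4 positions with 1 matched, and WCE replicate 2 had 16 and 18 with 6 matched. The reads with 2 placements of such a pair cannot say which copy was bound, so its 2 regions are 1 observation in these reads. Singly placed reads called RNA Pol II regions overlapping both members of the direct pair (486 and 778 reads). They also did so at chr13:21742001-21743000 and its copy (80 and 106 reads). At the other pairs they called 1 member or none.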

How the data were processed

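Chromatin immunoprecipitates of RNA Pol II, E2F4 and H3K27me3 (1 library each) and WCE (2 libraries) were analysed. The deposited values are other than counts: signed leftmost read positions on mm8, placed by bowtie with -e 70, -k 2, -m 2, -n 2 and -l 26 or 36, per the file headers. Bowtie is also named in the submitters' processing notes, without a version in the sources used here. Per the labels' protocols, fragments averaged 500 bp, 18 amplification cycles were used and gel slices spanned 150 to 350 bp. The lists are split into singly placed reads and a second section whose even number of lines was taken to mean reads listed at 2 places. Positions were taken as the leftmost base on both strands: in the second section the strands coincided most at a lag of 0 bp in 4 libraries and of 17 bp in WCE replicate 1.

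Each position and strand was kept once, 5′ ends were moved 60 bp and counted in 500 bp bins, separately for each section. Bins with a read were tested against summed WCE with a conditional binomial test (exact, one-sided), scaled by distinct autosomal reads, with Benjamini-Hochberg adjustment over all of them, and called where the adjusted p was under 0.01 and the ratio with 1 read added was 3 or more. Called bins with at most 1 bin between them were joined. Intervals are Clopper-Pearson at 95%. They cover counting error only, since amplified reads are not independent molecules, and a count of 0 was set at 3 reads for bounds. Seed lengths (-l) were taken as read lengths. The test was checked on simulated bins. Regions named are the 8 of each antibody whose ratio had the highest lower limit, the 6 such from reads with 2 placements, and the longest. The members and lists were chosen with earlier results of these data known. Python 3.11.15, numpy 2.4.6, scipy 1.17.1 and pandas 2.3.3 were used. Alternatives tried were each WCE library left out, scaling on sparse 10 kb bins, all reads kept, moves of 0 and 90 bp, both sections together, bins of 1000 and 2000 bp, an adjusted p under 0.0001, a ratio of 5 and an overlap of 0.5 of the shorter region.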

Additional observations from a re-analysis of the deposited data

How the results depend on the processing

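No paired analysis was possible because each antibody has 1 library, so the groups compared share fewer than 2 replicate numbers. Leaving out either WCE library gave 40 to 167 called RNA Pol II bins in 25 to 47 regions, 10 to 32 E2F4 bins in 9 to 25 regions and 0 to 15 H3K27me3 bins in 0 to 5 regions, with 3 to 21 RNA Pol II regions touching E2F4 and 3 to 23 E2F4 regions touching RNA Pol II; the low ends are those with the shallow WCE replicate 1 alone. Over the same settings the ratios of the middle part ran from 0.292 to 0.824 for RNA Pol II and from 0.366 to 1.03 for E2F4, the H3K27me3 ratios of the window from 0.889 to 1.11, of the lower part from 1.15 to 1.16 (interval reaching 1 at the low end) and of the middle part from 0.332 to 0.937, and the ratios of reads with 2 placements from 0.911 to 3.44 for E2F4 and 0.795 to 3.01 for H3K27me3. With scaling on sparse bins the middle part had ratios of 2.42 for RNA Pol II and 1.15 for H3K27me3, reads with 2 placements had ratios of 0.871 for E2F4 and 1.65 for H3K27me3, and H3K27me3 gave 36 called bins in 16 regions, with 9 bins in 6 regions from reads with 2 placements. The H3K27me3 ratio of 0.870 at chr13:23700001-23800000 became 1.14 with that scaling and 0.863 to 1.13 with either WCE library left out. With all reads kept H3K27me3 formed 13 regions, and 1 bin in 1 region from reads with 2 placements. With both kinds of read counted the E2F4 ratio was 1.0023 in the middle part and 1.0082 at chr13:23600001-23700000. Bins of 2000 bp gave 77 RNA Pol II bins in 31 regions, 12 of them touching E2F4, and 32 H3K27me3 bins in 17 regions, and bins of 1000 bp gave 108 RNA Pol II bins and 11 H3K27me3 regions; wider bins are fewer by construction. An adjusted p under 0.0001 left 8 H3K27me3 bins in 4 regions. Apart from bin size and scaling, the causes were not tested. Of 353 values of named regions and tiles, 339 kept their direction and their side of 1. Most of these regions were named for the highest lower limits of their ratios, so this count was largely set by that choice. RNA Pol II and E2F4 ratios of the window and of both outer parts stayed above 1 under all settings run. The depth of WCE replicate 1 limits every value that rests on it alone, and the 2 H3K27me3 regions without a WCE read rest on 13 and 12 reads.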
